A study of Mus musculus with 3 samples.

Results

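The genes described are 34 components of the cell cycle machinery, taken from a list of cyclins, cyclin-dependent kinases (CDKs), their regulators, replication factors and mitotic proteins. Their transcripts were measured in undifferentiated R1 cells, a mouse embryonic stem (ES) cell line, on 3 Affymetrix arrays of 1 sample each: cells given BMP4 at 20 ng/ml for 4 h, cells given the BMP antagonist noggin at 100 ng/ml for 4 h, and untreated cells. The platform annotation paired 33 of the 34 genes with at least 1 probe set, out of 18193 genes that it names. The 34th, the mitotic cyclin gene Ccnb1, was not analysed here because that annotation pairs no probe set with it. The 33 genes had 82 probe sets, of which 81 were paired with a single symbol, and 1 was shared between Tyms and its pseudogene Tyms-ps. Each gene was represented by whichever of its probe sets had the highest average, and all 33 were kept, because 1 array or more exceeded 3.44, the middle value of the table, which is called the floor. So were 11594 genes in all. Values are given on the log2 scale after RMA, so that 1 unit is a 2-fold difference. With 1 array per condition no value has a replicate error and no test could be made.

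The cell cycle runs from G1, in which D-type cyclins with CDK4 and CDK6 and then cyclin E with CDK2 phosphorylate the retinoblastoma protein and free E2F factors, through S phase, in which the genome is copied once, to G2 and mitosis under cyclin A, cyclin B and CDK1. ES cells are known for fast division, a short G1 phase and cyclin E-CDK2 activity that varies little over the cycle. BMP4 acts through receptor-activated SMAD proteins and, with LIF, helps to hold mouse ES cells in self-renewal, while noggin captures BMPs outside the cell and so blocks receptor binding. The comparisons ask whether 4 h with either factor was accompanied by a difference in these transcripts.

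The cells were checked against marker genes. All 7 markers of undifferentiated ES cells lay above the floor on every array, between 9.25 and 12.86. Of the 7 fibroblast markers found among 8 listed, 3 were above it on the BMP4, 4 on the noggin and 3 on the untreated array, and none exceeded 5.09. Their summed level on the linear scale was 98.1 with BMP4, 112.2 with noggin and 113.7 without treatment. Of 5 endoderm markers, Gata6, Sox17 and Sparc were above the floor on each array. Sparc reached 9.37, within the range of the ES cell markers. Gata6 measured 5.20 with BMP4 and 4.82 with noggin, against 4.67 untreated, and was higher with BMP4 by 0.52, or 0.90 in another probe set. Of the 3 mesoderm markers found among 4, 3 were above the floor on the BMP4, 2 on the noggin and 2 on the untreated array, none past 4.60. Id1, the BMP target gene used to check the treatment, measured 11.54 with BMP4 and 8.59 with noggin, against 8.78 in untreated cells, so it set the BMP4 array apart by 2.76 and the noggin array by −0.19 on the log2 scale, a difference under the 0.32 used below as a lower limit. Some technical features moved with the arrays too. The 24 probe sets for spiked poly-A transcripts had a median difference of −0.63 with BMP4 and −0.18 with noggin, each from untreated. For the 18 probe sets of the hybridisation spikes the medians were 0.01 with BMP4 and −0.0058 with noggin. The 3′ minus 5′ value of Actb was 0.21 with BMP4, 0.37 with noggin and 0.32 without treatment. In the same order it was 1.38, 1.88 and 1.51 for Tfrc, and 0.09, 0.10 and 0.06 for Gapdh. The part of these technical features in the differences that follow was not tested.

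Transcription of many of these genes is timed by sequence elements close to the start site. E2F sites recruit E2F factors with retinoblastoma family proteins, mainly in genes used at the G1/S boundary and in replication. The cell cycle homology region (CHR) is bound by the MuvB complex in genes used in G2 and mitosis, commonly near CCAAT boxes bound by NF-Y. Promoters of 300 bases, 250 before and 50 after the start, were given for 27 of the 34 genes by RefSeq on build GRCm38.p6, with 28 promoters in all. They were searched on both strands for the E2F letters TTTCCCGC, TTTCGCGC, TTTGCCGC and TTTGGCGC, for the CHR letters TTTGAA and for CCAAT. Matches of the E2F letters may overlap each other, and a match describes the letters only.

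The stretches below are the 150 bases before the start site, 5′ to 3′ on the gene's strand, with every match in capitals. The promoters of Mcm6, Cdc6 and Cdc25a are shown for their E2F letters, that of Rrm2 because all of its probe sets were higher with BMP4, Cdk1 because it holds all 3 elements, Cdc20 for a CHR match flanked by CCAAT boxes, Mki67 for the largest difference of the list with noggin, and Top2a because its probe sets went opposite ways there.
Mcm6 (chr1:128359706-128359855, minus strand): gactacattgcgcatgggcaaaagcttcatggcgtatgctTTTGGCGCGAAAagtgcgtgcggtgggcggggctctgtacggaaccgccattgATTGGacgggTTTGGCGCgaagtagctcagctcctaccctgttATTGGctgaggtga
Cdc6 (chr11:98908001-98908150, plus strand): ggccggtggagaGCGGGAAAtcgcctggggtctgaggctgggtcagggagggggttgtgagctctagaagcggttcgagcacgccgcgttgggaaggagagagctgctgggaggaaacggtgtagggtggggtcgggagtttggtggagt
Cdc25a (chr9:109875429-109875578, plus strand): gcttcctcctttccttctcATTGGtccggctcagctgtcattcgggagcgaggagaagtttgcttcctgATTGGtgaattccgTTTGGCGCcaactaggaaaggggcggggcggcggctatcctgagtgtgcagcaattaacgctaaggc
Rrm2 (chr12:24708104-24708253, plus strand): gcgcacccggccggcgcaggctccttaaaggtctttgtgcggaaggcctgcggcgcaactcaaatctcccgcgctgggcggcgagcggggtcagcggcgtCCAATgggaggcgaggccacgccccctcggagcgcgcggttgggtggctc
Cdk1 (chr10:69352913-69353062, minus strand): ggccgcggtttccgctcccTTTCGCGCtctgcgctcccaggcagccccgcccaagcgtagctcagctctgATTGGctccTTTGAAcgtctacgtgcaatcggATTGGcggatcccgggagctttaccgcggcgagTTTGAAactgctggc
Cdc20 (chr4:118437344-118437493, minus strand): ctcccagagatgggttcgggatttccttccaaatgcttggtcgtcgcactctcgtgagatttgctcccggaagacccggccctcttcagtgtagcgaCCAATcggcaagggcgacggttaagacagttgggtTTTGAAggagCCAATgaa
Mki67 (chr7:135716380-135716529, minus strand): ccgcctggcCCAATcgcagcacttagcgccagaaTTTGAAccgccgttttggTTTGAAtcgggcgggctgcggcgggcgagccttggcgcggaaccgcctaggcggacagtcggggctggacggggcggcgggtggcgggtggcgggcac
Top2a (chr11:99024190-99024339, minus strand): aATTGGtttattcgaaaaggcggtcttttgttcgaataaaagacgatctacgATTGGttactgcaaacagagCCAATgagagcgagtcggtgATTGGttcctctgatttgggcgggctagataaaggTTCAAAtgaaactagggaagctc

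The letters were counted by phase group. E2F letters were found in 4 of 8 promoters of replication genes (Cdc6, Mcm3, Mcm5 and Mcm6), in 2 of 3 of G1/S genes (Cdk2 and Cdc25a), in 1 of 12 of G2 and mitosis genes (Cdk1) and in 0 of 5 of G1 genes, against 2.26% of all 32851 promoters and 4.04% of the promoters of genes above the floor. CHR letters were in 9 of 12 promoters of G2 and mitosis genes and in 1 of 8 of replication genes (Mcm2), against 17.9% of all promoters and 11.7% of those of genes above the floor. Each of these 9 also held CCAAT, a combination present in 6.95% of all promoters. CCAAT alone is common, at 37.4% of all promoters, and was in 11 of 12 promoters of G2 and mitosis genes, all but that of Birc5. It was also in 6 of 8 promoters of replication genes, 2 of 3 of G1/S genes and 1 of 5 of G1 genes. In Mcm6 the E2F matches began 110, 106 and 47 bases before the start, the first of them overlapping the next. In Cdk1 the CHR matches began 71 and 15 bases before the start and the E2F match 131 bases before it.

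**Figure D1:**
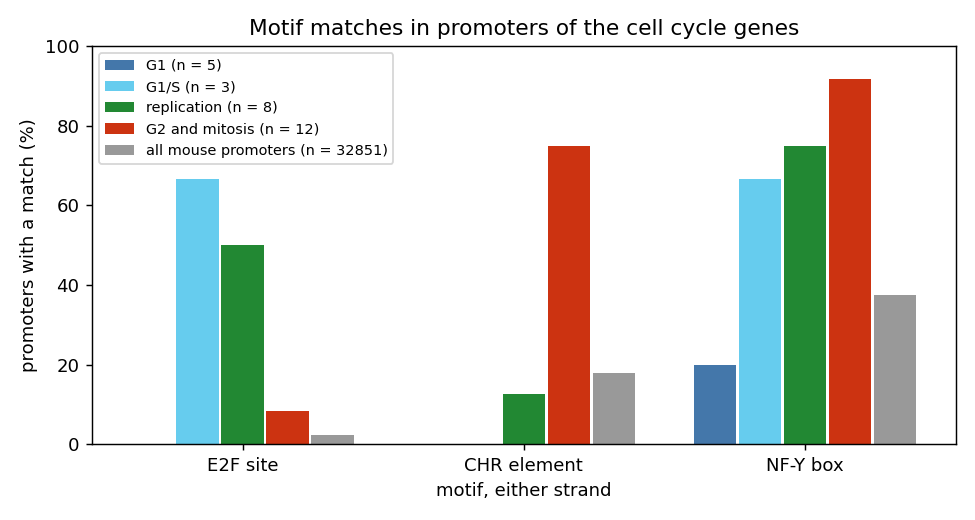
Share of promoters (%) with at least 1 match on either strand to the E2F, CHR or CCAAT (NF-Y box) letters, by phase group, with all mouse promoters in grey. The E2F bars are highest for G1/S and replication genes (2 of 3 and 4 of 8 promoters), and the CHR bar for G2 and mitosis genes (9 of 12).

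BMP4-treated cells were compared with untreated cells first. No cell cycle gene differed by 1.5-fold or more, where 0.276% of the 11594 genes did. At a lower limit, a log2 difference of 0.32 in either direction, the list had 1 gene, Rb1, which was lower with BMP4, against 2.26% of all genes. Of the 33 genes, 14 were higher, 11 lower and 8 equal to 6 decimals. Among all genes 24.8% were higher, 35.6% lower and 39.6% equal, and the median was 0.00 for the list as for all genes. With signs ignored, the median difference was 0.06 for the list and 0.02 for all genes. Within 0.1 of the untreated array lay 66.7% of the list and 78.8% of all genes. In noggin-treated cells 15 were higher, 9 lower and 9 equal relative to untreated cells, where 26.8% of all genes were higher and 36.1% lower. Both medians were again 0.00, and with signs ignored both were 0.02. Here 90.9% of the list lay within 0.1, against 79.5% of all genes. With noggin no cell cycle gene reached the lower limit, against 1.35% of all genes, nor 1.5-fold, against 0.0776%. Both comparisons use the same untreated array. Between probe sets of 1 gene above the floor, the differences had a within-gene SD of 0.13 for BMP4 and 0.11 for noggin over all genes with several probe sets. Rb1 with BMP4 and Mki67 with noggin were the only members past 2 such SDs, a limit passed by 4.05% of all genes with BMP4 and 5.34% with noggin.

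**Figure D2:**
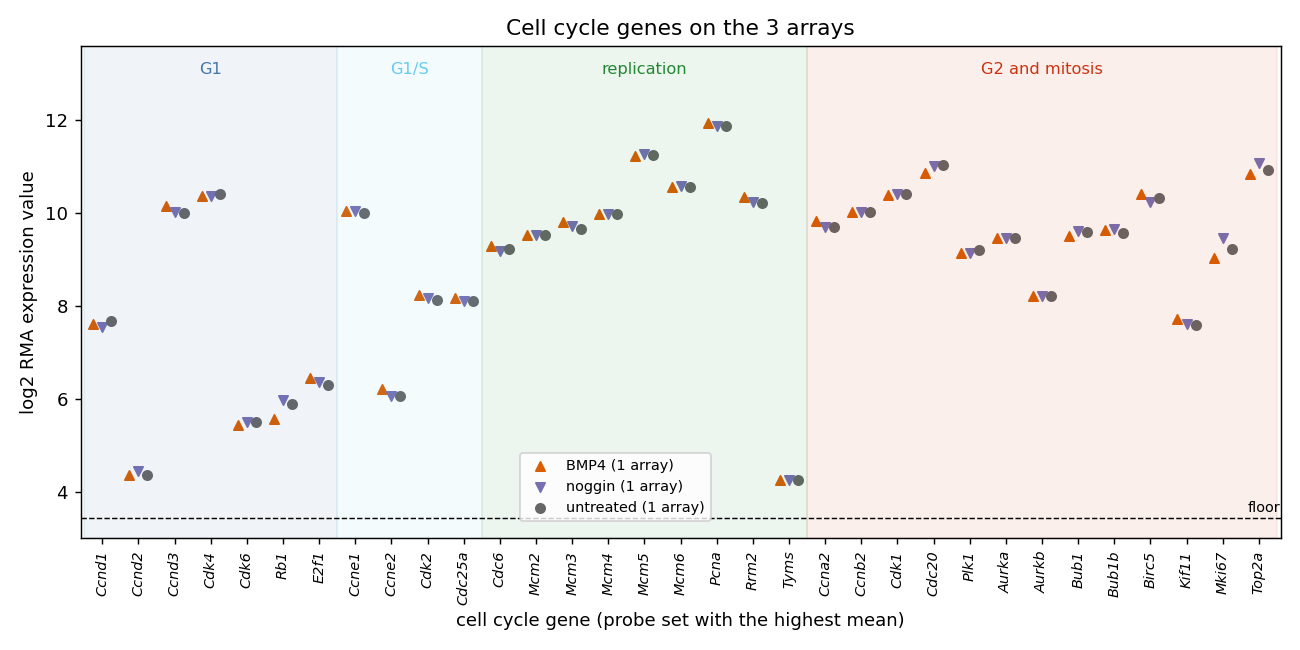
Log2 RMA value (vertical axis) of the 33 cell cycle genes, grouped by phase, on the BMP4, noggin and untreated arrays, 1 point per array. The 3 points of a gene lie close together, and the widest gap is that of Mki67, 0.45 between noggin and BMP4. Heights of different genes depend on their probes and are not to be set against each other.

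In the G1 group, 2 of 7 genes were higher with BMP4, 4 lower and 1 equal, with a median difference of −0.04. With noggin 4 were higher, 2 lower and 1 equal, with a median of 0.03. Beside this and the other phase counts stand the shares of all genes, 24.8% higher and 35.6% lower with BMP4. With noggin these shares were 26.8% and 36.1%. Rb1, which encodes the retinoblastoma protein that holds E2F in check, measured 5.56 with BMP4 and 5.97 with noggin, against 5.89 in untreated cells. Its difference of −0.33 with BMP4 was the lowest of the list. It rested on 1 probe set, because the other lay below the floor at 2.09 with BMP4 and 2.09 in untreated cells. E2f1, an activating E2F factor, measured 6.46 with BMP4 and 6.36 with noggin, against 6.30 untreated, and its other probe sets differed by at most 0.0048 in either comparison. Among these G1 regulators only the value of Rb1 with BMP4 lay outside ±0.2.

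The D-type cyclins, which activate CDK4 and CDK6 in response to growth signals, had no common direction. Ccnd1 measured 7.62 with BMP4 and 7.55 with noggin, against 7.67 in untreated cells. All 3 of its probe sets were lower with noggin, by −0.13 to −0.06, while with BMP4 they ran from −0.06 to 0.07. Ccnd3 measured 10.16 with BMP4 and 10.03 with noggin, against 9.99 untreated. That made its difference of 0.16 with BMP4 the highest of the representative probe sets, but the other probe set of Ccnd3 above the floor gave −0.12. For Ccnd2 only 3 of 7 probe sets lay above the floor, and the highest measured 4.36 with BMP4 and 4.45 with noggin, against 4.36 untreated. Of the kinases, Cdk4 measured 10.36 with BMP4 and 10.36 with noggin, against 10.40 untreated. Cdk6 measured 5.44 with BMP4 and 5.49 with noggin, against 5.49 untreated. In their representative probe sets both kinases stayed within 0.06 of the untreated array, while with noggin another probe set gave −0.11 for Cdk4 and −0.19 for Cdk6.

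In the G1/S group, which holds only 4 genes, 4 of 4 were higher with BMP4, with a median of 0.09. Of the list 42.4% and of all genes 24.8% were higher. No other phase group had every gene higher. With noggin 2 were higher, 1 lower and 1 equal, with a median of 0.02. Ccne2, a cyclin E that activates CDK2 at the entry into S phase, measured 6.20 with BMP4 and 6.07 with noggin, against 6.07 untreated. Ccne1, the other cyclin E, measured 10.05 with BMP4 and 10.05 with noggin, against 10.01 untreated, and its second probe set was higher by 0.10 with BMP4 and equal with noggin. Cdk2, their kinase partner, measured 8.24 with BMP4 and 8.16 with noggin, against 8.13 untreated. Cdc25a, the phosphatase that removes inhibitory phosphate from CDK2, measured 8.17 with BMP4 and 8.10 with noggin, against 8.10 untreated. Its other probe set above the floor gave −0.03 with BMP4. The largest of these differences, 0.13, was about the size of the within-gene SD over all genes, and above that of 0.08 among the members. These SDs compare probe sets on the same arrays and do not measure error between arrays.

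**Figure D3:**
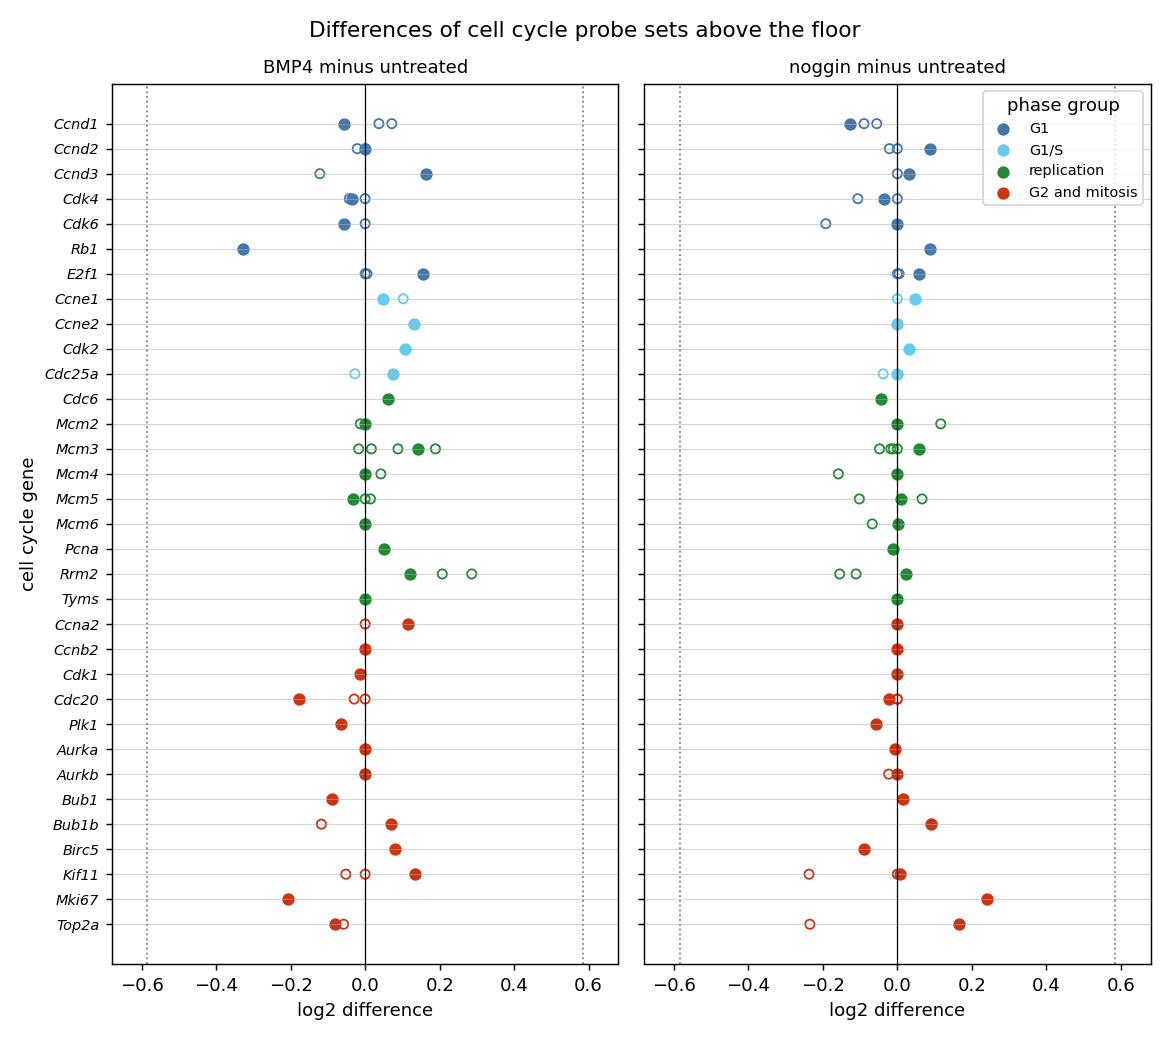
Log2 difference from the untreated array for BMP4 (left) and noggin (right), 1 row per gene, for probe sets above the floor; filled points are the probe set with the highest mean, open points the others, and dotted lines mark 1.5-fold. All points lie inside the dotted lines, and the probe sets of Top2a lie on opposite sides of 0 with noggin.

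Replication genes were close to the untreated array. With BMP4, 4 of 9 were higher, 1 lower and 4 equal, and with noggin 4 were higher, 2 lower and 3 equal, with medians of 0.00 in both. The MCM2 to MCM7 proteins form the ring helicase that unwinds DNA at the fork. Mcm2 measured 9.52 with BMP4, 9.52 with noggin and 9.52 untreated, and Mcm4 measured 9.99 on each array. Mcm6 measured 10.57 on each of the 3 arrays. These 3 genes thus gave flat values in their representative probe sets, while their other probe sets above the floor ran from −0.16 (Mcm4 with noggin) to 0.12 (Mcm2 with noggin). Mcm5 measured 11.23 with BMP4 and 11.27 with noggin, against 11.26 untreated. Mcm3 measured 9.80 with BMP4 and 9.72 with noggin, against 9.66 untreated. Of the 5 probe sets of Mcm3, 4 were higher with BMP4, by 0.02 to 0.19, and 1 was lower by 0.02. Cdc6, which loads the helicase on origins, measured 9.29 with BMP4 and 9.19 with noggin, against 9.23 untreated. Pcna, the sliding clamp of the replicative polymerases, measured 11.93 with BMP4 and 11.87 with noggin, against 11.88 untreated.

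The nucleotide enzymes gave different pictures. Rrm2 encodes the small subunit of ribonucleotide reductase, which makes deoxyribonucleotides, and all 3 of its probe sets were higher with BMP4, by 0.12, 0.21 and 0.29. With noggin they gave 0.02, −0.11 and −0.15 in the same order. The third of them measured 10.07 with BMP4 and 9.63 with noggin, against 9.78 untreated, so BMP4 exceeded noggin by 0.44 there. Of the 20 members with several probe sets above the floor, 7 had probe sets of opposite sign with BMP4. Only Rrm2 and Ccne1 had all of theirs higher, and only Cdk4 and Top2a all lower. For 1 probe set of Cdk4 the difference rounds to 0.00. The share of all genes with such agreement between probe sets was not computed. Tyms, thymidylate synthase, measured 4.26 on each array in its only own probe set above the floor. The probe set that it shares with Tyms-ps measured 8.75 with BMP4 and 8.64 with noggin, against 8.73 untreated, and its signal cannot be assigned to either.

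In G2 and mitosis, 4 of 13 genes were higher with BMP4, 6 lower and 3 equal, and with noggin 5 were higher, 4 lower and 4 equal, with medians of 0.00. Cdk1, the kinase of mitotic entry, measured 10.39 with BMP4 and 10.40 with noggin, against 10.40 untreated, and Ccnb2, a cyclin B, measured 10.01 on each array. Ccna2, cyclin A, which acts in S phase and G2, measured 9.83 with BMP4 and 9.71 with noggin, against 9.71 untreated, and its second probe set was equal on all arrays at 9.14. Plk1, a polo-like kinase of mitotic entry and spindle assembly, measured 9.13 with BMP4 and 9.14 with noggin, against 9.20 untreated. The Aurora kinase genes showed no difference at this resolution: Aurka measured 9.47 on each array and Aurkb 8.21.

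Genes of the spindle and its checkpoint had no common direction. Cdc20, the activator of the anaphase-promoting complex, measured 10.85 with BMP4 and 11.01 with noggin, against 11.03 untreated, and its other probe sets gave −0.03 and 0.00 with BMP4. Bub1, a checkpoint kinase, measured 9.50 with BMP4 and 9.60 with noggin, against 9.59 untreated. Bub1b, which encodes the checkpoint protein BubR1, measured 9.64 with BMP4 and 9.66 with noggin, against 9.57 untreated. Its second probe set gave −0.12 with BMP4, opposite in sign to the first, and 0.09 with noggin. Birc5, survivin of the chromosomal passenger complex, measured 10.40 with BMP4 and 10.23 with noggin, against 10.32 untreated. Kif11, the kinesin that pushes spindle poles apart, measured 7.73 with BMP4 and 7.60 with noggin, against 7.59 untreated. Its other probe sets gave −0.05 and 0.00 with BMP4, and −0.24 and 0.00 with noggin, so its direction depended on the probe set.

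Mki67 and Top2a, both widely used as proliferation markers, were lower with BMP4 and higher with noggin in their representative probe sets. In all 5 members had this pattern, the others being Rb1, Mcm5 and Bub1. The opposite pattern, higher with BMP4 and lower with noggin, was seen in 4: Ccne2, Cdc6, Pcna and Birc5. The share of all genes with either pattern was not computed, so these counts describe the list only. Some rest on differences near 0 with noggin, such as −0.0018 for Ccne2 and 0.0091 for Mcm5. Another probe set of Mcm5 was higher with BMP4, by 0.01. Mki67, whose protein Ki-67 coats mitotic chromosomes, measured 9.02 with BMP4 and 9.47 with noggin, against 9.23 untreated, on its single probe set. Its difference of 0.24 with noggin was the largest of the list in that comparison. Top2a, topoisomerase II alpha, which untangles DNA, measured 10.84 with BMP4 and 11.09 with noggin, against 10.92 untreated. The second probe set of Top2a above the floor measured 7.49 with BMP4 and 7.31 with noggin, against 7.55 untreated, so with noggin the probe sets of the gene gave 0.17 and −0.23.

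**Figure D4:**
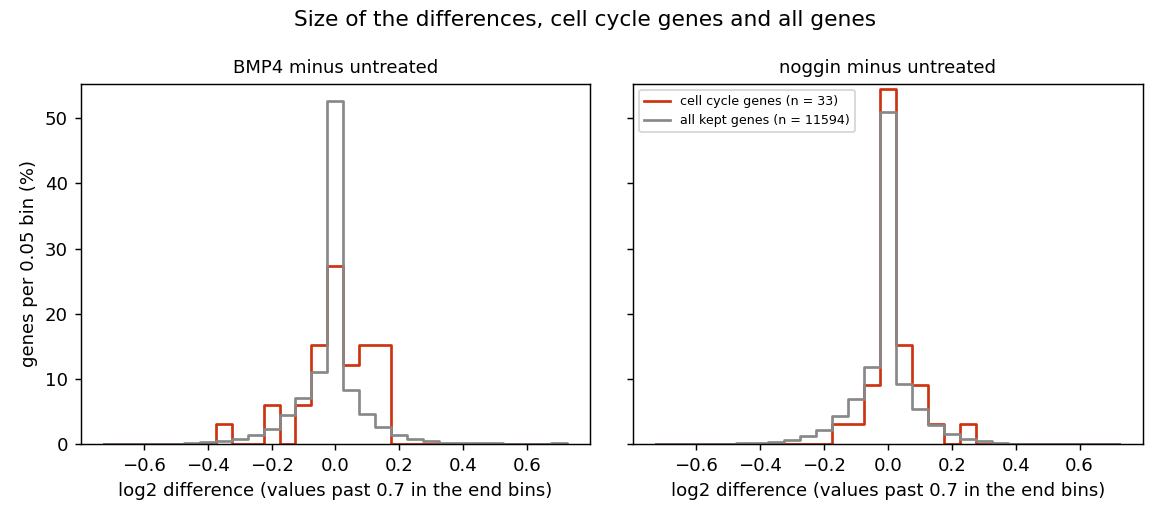
Share of genes (%) per 0.05-wide bin of log2 difference for BMP4 (left) and noggin (right), the 33 cell cycle genes in red and all 11594 genes above the floor in grey. The cell cycle genes, which are also among the 11594, lie between −0.33 and 0.16 with BMP4 and between −0.13 and 0.24 with noggin.

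BMP4 was also set directly against noggin. Of the 33 genes, 15 were higher with BMP4 than with noggin, 12 lower and 6 equal, while 33.1% of all genes were higher and 34.1% lower. With signs ignored, the median difference was 0.08 for the list and 0.04 for all genes. None reached 1.5-fold, against 0.518% of all genes. At the lower limit of 0.32 there were 2, Mki67 at −0.45 and Rb1 at −0.41, against 3.82% of all genes. Among representative probe sets they were followed on the lower side by Top2a at −0.25 and Cdc20 at −0.15, and the highest were Birc5 at 0.17, Ccne2 at 0.13 and Ccnd3 at 0.13. Other probe sets gave 0.44 and 0.32 for Rrm2, above these, and 0.18 for Top2a, opposite in sign to the first. By phase the medians were 0.00 for G1, 0.08 for G1/S, 0.00 for replication and −0.0074 for G2 and mitosis.

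Probe sets below the floor behaved differently on the noggin array. The list had 17 of them, belonging to 12 genes, and with noggin 11 were lower, 2 higher and 4 equal, with a median of −0.13. With BMP4 5 were lower, 2 higher and 10 equal, with a median of 0.00. Low values were lower on the noggin array in general. The 5th percentile stood at 1.82 on the BMP4, 1.60 on the noggin and 1.82 on the untreated array. Of all 22285 probe sets below the floor, 21.2% were lower with BMP4, 23.4% higher and 55.3% equal. With noggin 59.1% of them were lower and 6.84% higher. The second probe set of Cdk2, for example, measured 1.74 with BMP4 and 1.22 with noggin, against 1.74 untreated. Averaging over all its probe sets, such low ones included, gave Cdk2 a difference of −0.24 with noggin, against 0.03 for its representative probe set.

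**Figure D5:**
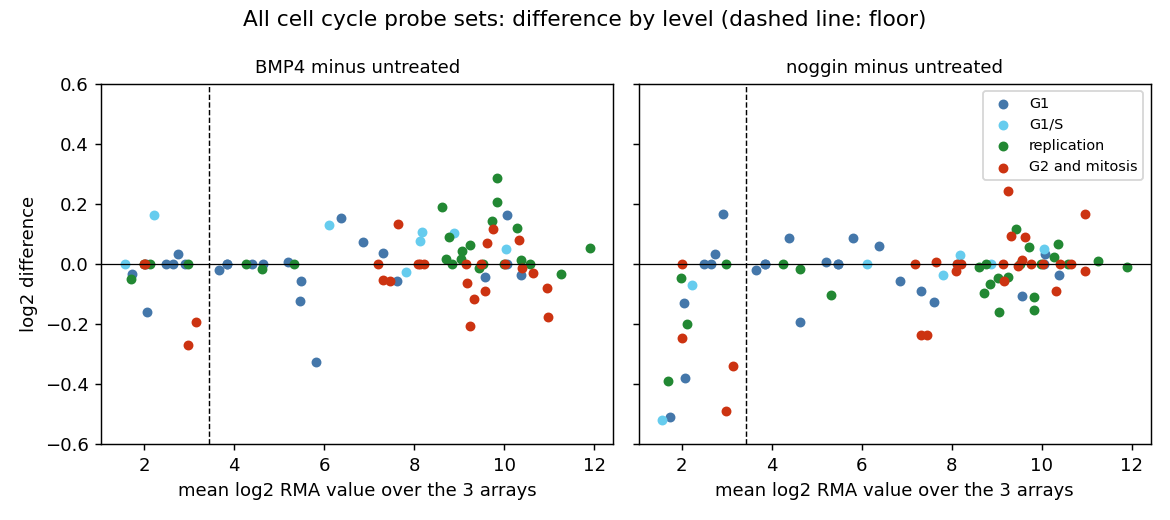
Log2 difference (vertical axis) against the mean log2 RMA value (horizontal axis) for all 82 cell cycle probe sets, BMP4 left and noggin right, coloured by phase group. With noggin the points left of the dashed floor reach down to −0.52, whereas with BMP4 they stay between −0.27 and 0.16.

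A wider list of 79 other cell cycle genes, none of them among the 34, had 78 above the floor. With BMP4 20 were higher, 42 lower and 16 equal, which makes 53.8% lower beside 35.6% of all genes, and the median was −0.0071. With noggin 28 were higher, 28 lower and 22 equal, with a median of 0.00. None reached 1.5-fold in either comparison. The highest with BMP4 were Skp2, an F-box protein that targets the CDK inhibitor p27, at 0.38, E2f4, a repressive E2F, at 0.27, and Dbf4, the activator of the origin kinase CDC7, at 0.18. The lowest were Cdc25c, a phosphatase of mitotic entry, at −0.42, Pold1, the catalytic subunit of polymerase delta, at −0.29, and Incenp, of the chromosomal passenger complex, at −0.25. With noggin Cenpf and Cenpe, both kinetochore proteins of mitosis, were highest at 0.34 and 0.27, followed by Pole, of polymerase epsilon, at 0.15. Ccnh, the cyclin of the CDK-activating kinase, at −0.18, Cdc25c at −0.17 and the replisome gene Gins3 at −0.17 were lowest. Cenpf measured 8.29 with BMP4 and 8.76 with noggin, against 8.41 untreated, and Cenpe 7.65 with BMP4 and 8.13 with noggin, against 7.85 untreated. With BMP4, another probe set gave −0.02 for Skp2, −0.02 for Cdc25c, 0.00 for Pold1 and 0.00 for Incenp. Other probe sets of Cenpf gave up to 0.43 with BMP4. With noggin, another probe set gave 0.03 for Cenpf, −0.03 for Cenpe, 0.00 for Ccnh, −0.02 for Cdc25c and −0.26 for Gins3.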

How the data were processed

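The values, which the authors deposited as 1 table, are on the log2 scale after RMA, per the submitters' processing notes. The RMA version and settings are not given in the sources used here. RMA normalizes arrays to like distributions. Of all probe sets, 26.1% were equal to 6 decimals across the 3 arrays, and the cause of these ties was not tested. Small differences may appear as 0.00, so equal values are not evidence of equal transcript levels. The platform annotation paired 34945 of 45101 probe sets with 1 symbol, 932 with several and 9160 with none, besides 64 controls. Gene identifiers of all 33 genes matched RefSeq (GRCm38.p6). A gene took its probe set of highest average and was kept if that exceeded 3.44, the median of the table, on at least 1 array. Differences were computed with Python 3.11.15 and pandas 2.3.3, and the computation was checked on simulated data. Arrays have no read depth, and 1 array per condition limits the precision: no SD or p-value between samples is given.

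The members, the phase groups and the wider list were chosen with earlier results of these data known. All members are named, and of the wider list and the CDK inhibitors the 3 genes with the largest differences each way from untreated. The alternatives were the mean over probe sets, plain-suffix probe sets, no floor, a floor at the 75th percentile, centring on the median, limits of 2-fold and of 0.32 on the log2 scale, and probe sets as units.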

Additional observations from a re-analysis of the deposited data

How the results depend on the processing

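With 1 array per condition no array could be left out, and no paired analysis was possible because each group holds 1 sample and no test was made. The count of cell cycle genes past 1.5-fold was 0 in every comparison. It was also 0 under the 3 settings that could have raised it, which are the mean over probe sets, plain-suffix probe sets and probe sets as units. The higher limit and the higher floor cannot raise a count of 0, and centring and no floor left the members' values as they were. At the lower limit, a log2 difference of 0.32, it was 1 for BMP4 minus untreated and 2 for BMP4 minus noggin. For the wider list with the CDK inhibitors, which was 0 at 1.5-fold, the count at the lower limit was 2 with BMP4 and 1 with noggin, each against untreated, and 4 between BMP4 and noggin, where 2.26%, 1.35% and 3.82% of all genes passed it, and at 1.5-fold with probe sets as units it was 1 for BMP4 minus noggin. The medians of the list and of the phase groups moved by at most 0.09 under 5 settings, less than the within-gene SD over all genes but more than that of 0.08 among the members with BMP4, and some changed direction. With the higher floor the G1 median was 0.06 with BMP4, against −0.04. With probe sets averaged the noggin medians were −0.015 for G1, against 0.03, and −0.02 for G1/S, against 0.02. Of 99 differences of single members, 19 moved by more than 1 within-gene SD under at least 1 setting. Averaging all probe sets gave −0.16 for Rb1 with BMP4, whose other probe set lies below the floor, and −0.02 for Top2a with noggin. With plain-suffix probe sets alone Top2a was at −0.23 and Kif11 at −0.24 with noggin. The causes were not tested.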

Other observations

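The genes of the CDK inhibitors, whose proteins restrain the kinases described above, were also measured, and all 7 lay above the floor. With BMP4 2 were higher, 3 lower and 2 equal, and with noggin 2 were higher, 3 lower and 2 equal, with medians of 0.00. Cdkn1b, which encodes p27, measured 5.51 with BMP4 and 5.51 with noggin, against 5.67 untreated. Cdkn1a, which encodes p21, measured 7.90 with BMP4 and 8.02 with noggin, against 8.01 untreated. Of the INK4 genes, which act on CDK4 and CDK6, Cdkn2a, Cdkn2b and Cdkn2c differed by at most 0.06 in either comparison, and Cdkn2d by −0.0068 with BMP4 and −0.10 with noggin.

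The promoter letters were also counted in the 76 promoters of the wider cell cycle list, after the shares among the members had been seen. E2F letters were in 15 of them (19.7%), CHR letters in 27 (35.5%) and CCAAT in 42 (55.3%), beside 2.26%, 17.9% and 37.4% of all promoters.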
